A study of Mus musculus with 18 samples.

Results

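Loss of Twist in endothelial cells was examined in the obstructed mouse kidney. The comparison took 6 of the 18 libraries of the series, chosen by the group that the sample labels name: 3 of obstructed kidneys with a conditional knockout of Twist (Twist cKO UUO) and 3 of obstructed wild-type kidneys (WT UUO). UUO is unilateral ureteral obstruction, the tying of a ureter, after which the kidney above it loses tubular function and scars. Per the labels' genotypes, the Twist cKO UUO mice carried Cdh5-CreERT2 and 2 floxed Twist alleles (written + FF). Of the WT UUO mice, replicates 1 and 2 carried Cdh5-CreERT2 and no floxed allele (+ ++), and replicate 3 carried floxed Twist alleles and no Cre (- FF). All 6 came from a line of mixed C57BL6, 129sv and Balb/c background and were 12 weeks old at the endpoint. Of the other libraries, 3 were obstructed kidneys with Cdh5-CreERT2 and floxed Snail alleles (Snail cKO UUO, 12 weeks) and 3 were obstructed kidneys with GGT-Cre, a Cre of kidney tubule cells, and floxed Myc alleles (Myc cKO UUO, 11 to 12 weeks). Both lines were of mixed C57BL6 and Balb/c background, without 129sv. Contralateral kidneys, opposite a tied ureter, gave the level without obstruction. Replicates 1 and 2 were Cre-positive with no floxed allele and replicate 3 was Cre-negative and floxed, all of the Twist line at 12 weeks. The 3 healthy kidneys were all Cre-negative and floxed, of the same line and age.

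Cdh5-CreERT2 places a tamoxifen-dependent Cre under the promoter of the VE-cadherin gene, so the allele can be cut only in cells that use this promoter while the drug acts. The sources used here give neither the tamoxifen schedule nor the time since obstruction. RNA was total RNA from a piece of whole kidney, so each value sums endothelium, tubules, stroma and immune cells, and fewer cells of a type cannot be told apart from less RNA per cell. The labels do not say that the libraries of a group are separate animals, and p-values here measure the spread between these samples.

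Twist1 is a basic helix-loop-helix transcription factor that pairs with E proteins, binds E-box sequences and drives cells toward a mesenchymal, motile state during development. Endothelial cells that take on such a programme, in endothelial-to-mesenchymal transition, lose junction proteins such as VE-cadherin and gain contractile and matrix genes. In the obstructed kidney, leaky and sparse capillaries, a growing population of myofibroblasts, macrophage influx and loss of transport and mitochondrial genes in the tubules are the known accompaniments of scarring. The study set the endothelial knockouts beside WT UUO to ask what blocking this transition does to vessels, oxygen supply and tubular metabolism.

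Total counts were 61.3, 73.9 and 52.6 M in Twist cKO UUO replicates 1 to 3, against 62.0, 59.5 and 59.8 M in WT UUO replicates 1 to 3. The mitochondrial ribosomal RNAs took 26.2%, 29.9% and 24.1% of them in Twist cKO UUO kidneys, against 19.2%, 19.2% and 20.35% in WT UUO kidneys. By Ddx3y and Xist, replicate 2 of each group was male and the others were female. edgeR's quasi-likelihood test, fitted over all 18 libraries, tested 21050 genes, and a gene was called at a Benjamini-Hochberg adjusted p under 0.05, two-sided. It called 1111 genes, 5.28% of those tested: 625 higher (2.97%) and 486 lower (2.31%) in Twist cKO UUO than in WT UUO kidneys. Of the calls, 475 were at least 2-fold, and in 1107 the 3 libraries of each group did not overlap, which held for 32.6% of all genes tested. The median log2 fold change of all genes was -0.0074, and under scaling by library totals alone it was -0.161, where 232 genes were called higher and 376 lower. The smallest adjusted p was 0.0052. Errors of log2 fold changes are standard errors (SE).

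**Figure D1:**
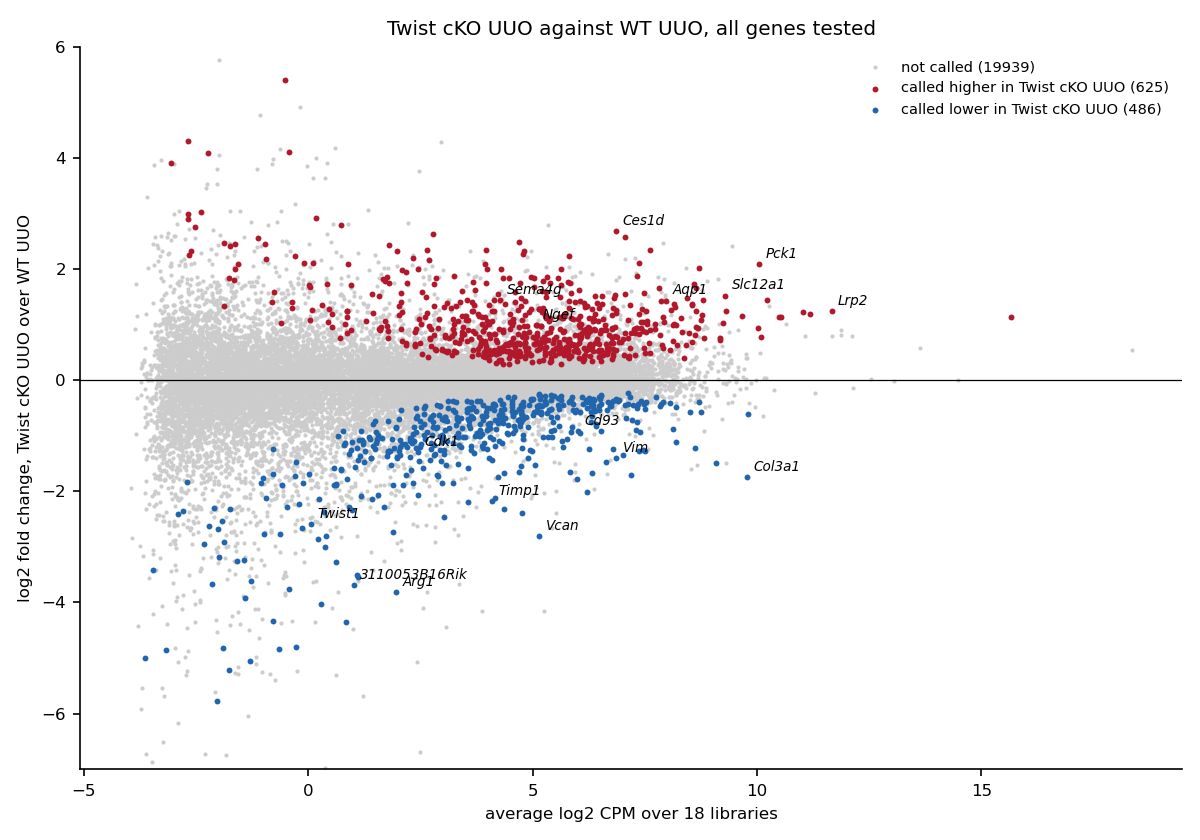
Each point is a gene, with its average log2 CPM over 18 libraries on the horizontal axis and its log2 fold change, Twist cKO UUO over WT UUO, on the vertical axis; red points (625) were called higher and blue points (486) lower. Falls of matrix and immune genes such as Vcan, Timp1 and Arg1 reached further from 0 than most rises, and 5 uncalled genes lie outside the plotted range of -7 to 6.

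Libraries stood apart within both groups, and calls depended on them. When WT UUO replicate 1 was left out, 13 genes were called. When Twist cKO UUO replicate 2 was left out, 24 were. The other counts were 316 without Twist cKO UUO replicate 1, 347 without Twist cKO UUO replicate 3, 395 without WT UUO replicate 2 and 1057 without WT UUO replicate 3. Leaving out these 2 libraries took the median adjusted p of the 1111 genes to 0.141 for WT UUO replicate 1 and 0.106 for Twist cKO UUO replicate 2. In all 6 of these fits, 1111 of the 1111 genes kept their direction. Markers of tissue outside the kidney proper were high in WT UUO replicate 1. The 9 urothelial markers summed to 63.8, 30.9 and 52.9 CPM (counts per M counts of the library, with TMM scaling) in Twist cKO UUO replicates 1 to 3, against 479.7, 98.5 and 34.7 CPM in WT UUO replicates 1 to 3. The 11 markers of smooth muscle of larger vessels and ureter summed to 118, 109 and 129 CPM in Twist cKO UUO kidneys, against 387, 173 and 119 CPM in WT UUO kidneys. The 10 adipocyte markers summed to 44.8, 37.8 and 46.0 CPM in Twist cKO UUO kidneys, against 244.4, 119.9 and 54.7 CPM in WT UUO kidneys. The defining fat gene Adipoq (adiponectin) had 0, 0.17 and 0.0146 CPM in Twist cKO UUO kidneys, against 14.2, 6.43 and 0.0122 CPM in WT UUO kidneys. Plin1, the coat protein of fat droplets, had 0, 0.0122 and 0.0292 CPM in Twist cKO UUO kidneys, against 4.26, 2.56 and 0.0122 CPM in WT UUO kidneys. The 6 mesothelial markers summed to 94.8, 86.9 and 87.7 CPM in Twist cKO UUO kidneys, against 372, 105 and 89.1 CPM in WT UUO kidneys. Of these 4 lists, 0 of 9, 1 of 11, 0 of 10 and 1 of 6 members were called: the contractile filament gene Des lower and Gpm6a higher. The adipocyte sums did not overlap between the groups, the other 3 lists did, and WT UUO replicate 3 lay near the Twist cKO UUO kidneys in all 4. At an unadjusted p under 0.05, 3 urothelial, 7 smooth muscle, 5 adipocyte and 3 mesothelial markers were lower, and 0, 1, 0 and 1 were higher. DESeq2 called 0, 2, 5 and 2 of these lists and limma voom 0, 0, 0 and 1. Of 10 erythroid and platelet markers, Pf4 fell, and of 5 lymphatic and 6 nerve markers 0 were called, with 3 and 1 at an unadjusted p under 0.05, DESeq2 calling 2 and 0 and limma voom 0 and 1. The part of this extra tissue in the results was not tested beyond leaving out the libraries that held it.

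**Figure D2:**
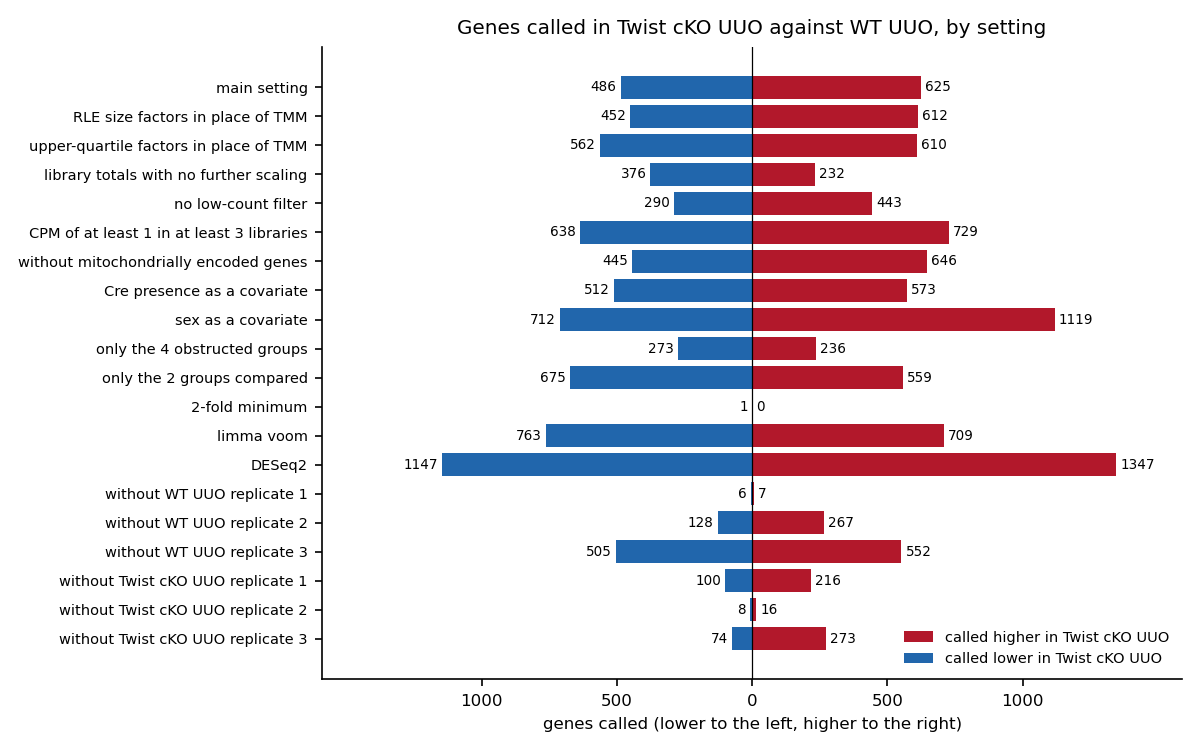
Bars count the genes called in Twist cKO UUO against WT UUO kidneys under each setting, higher to the right and lower to the left. The main setting called 625 higher and 486 lower; leaving out WT UUO replicate 1 or Twist cKO UUO replicate 2 left 13 and 24 calls.

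The labels name the floxed gene only as Twist, read here as Twist1, which fell. Twist1, at chr12:33957671-33959829 (GRCm38, GENCODE M21), had 0.378, 0.596 and 0.307 CPM in Twist cKO UUO kidneys, against 2.13, 4.49 and 1.14 CPM in WT UUO kidneys (log2 fold change -2.59 ± 0.49, adjusted p = 0.0172). The groups did not overlap, WT UUO replicate 2 was the highest, and replicate 3, the floxed library without Cre, was the lowest of its group. Contralateral kidneys had 0.188, 0.372 and 0.131 CPM. Snail cKO UUO kidneys had 1.49, 1.85 and 1.33 CPM, and Myc cKO UUO kidneys 0.971, 1.22 and 0.851 CPM. In the direct tests Twist1 was called neither against Snail cKO UUO (log2 fold change -1.86 ± 0.48, adjusted p = 0.264) nor against Myc cKO UUO kidneys (-1.24 ± 0.48, adjusted p = 0.181). Its paralog Twist2 had 0.30, 0.256 and 0.219 CPM in Twist cKO UUO kidneys, against 1.19, 1.06 and 0.379 CPM in WT UUO kidneys, and was not called (log2 fold change -1.76 ± 0.65, adjusted p = 0.122). Of the 9 members tested of the Twist family and its partners, 2 were called higher and 2 lower, with a median log2 fold change of -0.01. Id2 and Id4, inhibitors that bind E proteins without binding DNA, rose. Id2 had 126, 107 and 96.8 CPM in Twist cKO UUO kidneys, against 63.2, 65 and 61.2 CPM in WT UUO kidneys (log2 fold change 0.80 ± 0.17, adjusted p = 0.0227). Id4 had 15.5, 11 and 17.5 CPM in Twist cKO UUO, against 6.24, 5.46 and 8.12 CPM in WT UUO (log2 fold change 1.15 ± 0.31, adjusted p = 0.0472), and neither Id gene overlapped between the groups. Id2 lies within 20 Mb of Twist1 on chromosome 12. The E protein gene Tcf4, a dimer partner of Twist1, fell (log2 fold change -0.35 ± 0.09, adjusted p = 0.0406). Tcf12, another E protein gene, was not called (log2 fold change -0.20 ± 0.07, adjusted p = 0.0845). Among 10 transcription factors of epithelial-mesenchymal transition, 2 fell, 0 rose and the median was -0.41. They were Zeb1, a repressor of epithelial genes (log2 fold change -0.54 ± 0.11, adjusted p = 0.022), and Prrx1, a mesenchymal homeobox factor (log2 fold change -1.18 ± 0.30, adjusted p = 0.0389). Snai1 had 2.16, 1.8 and 2.07 CPM in Twist cKO UUO kidneys, against 3.2, 3.44 and 2.4 CPM in WT UUO kidneys, and was not called (log2 fold change -0.58 ± 0.38, adjusted p = 0.389). Snai2 was not called either (log2 fold change -0.42 ± 0.28, adjusted p = 0.403). Of the 6 calls given with values, 1, 0 and 1 stayed called without Twist cKO UUO replicates 1, 2 and 3, and 0, 2 and 4 without WT UUO replicates 1, 2 and 3.

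Some junction and identity genes of the endothelium were lower in Twist cKO UUO kidneys. Of 25 endothelial identity genes, 4 fell, 0 rose, 21 had a negative log2 fold change and the median was -0.36. Calls lower made up 2.31% of all genes tested. The groups did not overlap in 9 of the 25, beside 32.6% of all genes tested. The mean level of the list overlapped: 0.38, 0.14 and 0.24 log2 above the contralateral mean in Twist cKO UUO kidneys, against 0.82, 0.33 and 0.60 in WT UUO kidneys. Without WT UUO replicate 1 the median was -0.22. Cdh5, the VE-cadherin gene of the endothelial junction, had 50.5, 49.1 and 44.7 CPM in Twist cKO UUO kidneys, against 109.7, 70.5 and 74.4 CPM in WT UUO kidneys (log2 fold change -0.82 ± 0.13, adjusted p = 0.0124). Pecam1, another junction protein of endothelium, had 70.4, 59.2 and 59.4 CPM in Twist cKO UUO, against 119.7, 78.6 and 82.1 CPM in WT UUO (log2 fold change -0.57 ± 0.13, adjusted p = 0.0275). The groups did not overlap in either gene, and WT UUO replicate 1 was the highest library in both. Contralateral kidneys averaged 28 ± 2.13 CPM of Cdh5 and 44.8 ± 1.44 CPM of Pecam1 (SD, n = 3), below both obstructed groups. Erg, an ETS factor of endothelial identity (log2 fold change -0.58 ± 0.14, adjusted p = 0.0333), and the junctional Esam (log2 fold change -0.53 ± 0.15, adjusted p = 0.0466) fell as well. Cd93, a surface receptor of endothelial cells, had 73.9, 54.8 and 59.7 CPM in Twist cKO UUO kidneys, against 126, 115 and 116 CPM in WT UUO kidneys (log2 fold change -0.92 ± 0.11, adjusted p = 0.00532). Cd93 is outside the 25 identity genes and was chosen after its values were seen. It was taken because it was called in each of the 6 fits with a library left out, so that its calls there are no separate support. Flt4, the receptor for the lymphatic growth factor VEGF-C, was not called (log2 fold change -0.51 ± 0.15, adjusted p = 0.0567). The calls of Cdh5 and Cd93 held with WT UUO replicate 1 left out. That of Cd93 held with Twist cKO UUO replicate 2 left out.

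Of 19 genes of VEGF and angiopoietin signalling, 3 fell and 1 rose, with a median of -0.30. Angpt2, the ligand that loosens endothelial contacts by opposing Tie2 signalling, had 16.5, 18 and 14.2 CPM in Twist cKO UUO kidneys, against 35.8, 26 and 28.3 CPM in WT UUO kidneys (log2 fold change -0.89 ± 0.20, adjusted p = 0.0262). Pgf, placental growth factor, had 1.06, 0.694 and 0.555 CPM in Twist cKO UUO, against 8.74, 1.86 and 1.41 CPM in WT UUO, where WT UUO replicate 1 was far above the others (log2 fold change -2.38 ± 0.63, adjusted p = 0.0432). Thbs1, thrombospondin 1, an inhibitor of angiogenesis and activator of latent TGF-beta, fell (log2 fold change -1.12 ± 0.30, adjusted p = 0.0451). Vegfb, a related growth factor gene, rose (log2 fold change 0.51 ± 0.14, adjusted p = 0.046). Vegfa, the main growth factor of capillaries, had 78.1, 79.2 and 76.9 CPM in Twist cKO UUO kidneys, against 82.7, 52.6 and 63.6 CPM in WT UUO kidneys. The groups overlapped and it was not called (log2 fold change 0.24 ± 0.16, adjusted p = 0.411). Among 13 Notch genes the ligand gene Dll1 rose (log2 fold change 0.56 ± 0.15, adjusted p = 0.0495) and 0 fell. Calls higher made up 2.97% of all genes tested. Of 9 vascular adhesion genes 0 were called; the platelet and endothelial selectin gene Selp had 1.55, 2.06 and 1.72 CPM in Twist cKO UUO, against 7.17, 1.37 and 3.53 CPM in WT UUO. Of the 9, 1 was lower at an unadjusted p under 0.05, and DESeq2 and limma voom called 0. With Twist cKO UUO replicate 1, 2 or 3 left out, 4, 1 and 2 of the 10 calls given with values held, and with WT UUO replicate 1, 2 or 3 left out, 2, 7 and 8.

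Some oxygen-response genes were called, in both directions, where 5.28% of all genes tested were. Epas1, which encodes HIF-2alpha, had 159, 151 and 168 CPM in Twist cKO UUO kidneys, against 118, 114 and 122 CPM in WT UUO kidneys, with no overlap (log2 fold change 0.44 ± 0.12, adjusted p = 0.0483). Hif1a, which encodes HIF-1alpha and is controlled largely at the protein level, had 128, 129 and 125 CPM in Twist cKO UUO, against 221, 114 and 125 CPM in WT UUO. WT UUO replicate 1 alone was high and the gene was not called (log2 fold change -0.27 ± 0.19, adjusted p = 0.437). Of 20 hypoxia targets outside glycolysis, 1 rose, 1 fell and the median was -0.22. At an unadjusted p under 0.05, 7 were lower and 1 higher, beside 4811 of all 21050 genes tested in either direction. DESeq2 called 4 and limma voom 3. The member that rose was Epas1, whose product HIF-2alpha is itself a regulator of such targets, and no other member was called higher. The one that fell was Hmox1, the inducible heme oxygenase, with 13, 11.5 and 9.76 CPM in Twist cKO UUO kidneys, against 32.5, 113 and 24.3 CPM in WT UUO kidneys, of which replicate 2 was far the highest (log2 fold change -2.31 ± 0.50, adjusted p = 0.0258). Of 26 genes of glycolysis, 1 rose and 2 fell, with a median of -0.02. The log2 fold change was positive in 12 of them and negative in 14, and the gene that rose is not reported here by name. The lactate exporter gene Slc16a3 (log2 fold change -1.89 ± 0.47, adjusted p = 0.0358) and the inducible hexokinase gene Hk2 (log2 fold change -1.31 ± 0.34, adjusted p = 0.0416) fell. Pkm, the pyruvate kinase of dedifferentiated cells, had 155, 178 and 144 CPM in Twist cKO UUO kidneys, against 417, 227 and 218 CPM in WT UUO kidneys, and was not called (log2 fold change -0.85 ± 0.26, adjusted p = 0.0655). The 4 calls given with values were down to 0, 0 and 0 without Twist cKO UUO replicates 1, 2 and 3, and to 0, 1 and 3 without WT UUO replicates 1, 2 and 3.

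A part of the myofibroblast genes fell. Of 20 genes of myofibroblasts and pericytes, 6 fell, 0 rose, 19 had a negative log2 fold change and the median was -1.19. Acta2, alpha-smooth muscle actin of the contractile myofibroblast, had 43, 56.5 and 44.4 CPM in Twist cKO UUO kidneys, against 239, 252 and 89.4 CPM in WT UUO kidneys (log2 fold change -2.01 ± 0.51, adjusted p = 0.0378). Vim, the mesenchymal intermediate filament vimentin, had 114, 116 and 105 CPM in Twist cKO UUO, against 322, 318 and 245 CPM in WT UUO (log2 fold change -1.40 ± 0.29, adjusted p = 0.022). Neither gene overlapped between the groups, and in both WT UUO replicate 3 lay nearest to the Twist cKO UUO kidneys. Fap, a surface protease of activated fibroblasts, had 3.18, 3.36 and 2.26 CPM in Twist cKO UUO kidneys, against 10.3, 14 and 8.2 CPM in WT UUO kidneys (log2 fold change -1.88 ± 0.31, adjusted p = 0.0127). The contractile genes Tpm2 (log2 fold change -1.66 ± 0.41, adjusted p = 0.036), Myl9 (log2 fold change -1.02 ± 0.27, adjusted p = 0.0436) and Des (log2 fold change -1.09 ± 0.29, adjusted p = 0.0466) fell too. These 3 and Acta2 are also made by smooth muscle, whose markers were high in WT UUO replicate 1 as given above. Leaving out Twist cKO UUO replicate 1, 2 or 3 left 1, 0 and 1 of the 6 calls given with values, and leaving out WT UUO replicate 1, 2 or 3 left 0, 1 and 6.

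Most fibrillar collagens fell, as did part of the enzymes that modify collagen. Of 10 fibrillar collagen genes, 6 fell, 0 rose and the median was -1.51, the lowest of the 51 lists that do not mark other tissues. Col3a1 had 664, 748 and 811 CPM in Twist cKO UUO kidneys, against 3222, 2603 and 1604 CPM in WT UUO kidneys (log2 fold change -1.74 ± 0.48, adjusted p = 0.0486). Col1a2 had 444, 587 and 514 CPM in Twist cKO UUO, against 1728, 1745 and 875 CPM in WT UUO (log2 fold change -1.49 ± 0.38, adjusted p = 0.0394). WT UUO replicate 3 was the lowest of its group in both, still above all 3 Twist cKO UUO kidneys. Col1a1, the partner chain of Col1a2 in type I collagen, had 288, 473 and 428 CPM in Twist cKO UUO, against 1429, 1297 and 687 CPM in WT UUO, and missed the threshold (log2 fold change -1.52 ± 0.51, adjusted p = 0.0929). Col11a1, a minor fibril collagen, had 3.39, 5.32 and 6.21 CPM in Twist cKO UUO kidneys, against 37.4, 35.6 and 9.29 CPM in WT UUO kidneys (log2 fold change -2.46 ± 0.47, adjusted p = 0.0178). Col5a3 had 9.78, 6.74 and 6.09 CPM in Twist cKO UUO, against 31.3, 48.3 and 23.3 CPM in WT UUO (log2 fold change -2.18 ± 0.41, adjusted p = 0.0178). Col5a1 and Col5a2, of the same class of minor fibril collagens as Col5a3, fell as well, with log2 fold changes of -1.48 and -1.70. Of 16 basement membrane and network collagens, 4 fell, 0 rose and the median was -0.66. They were the beaded-filament genes Col6a1 (-1.23), Col6a2 (-1.20) and Col6a3 (-1.25) and the basement membrane gene Col4a1 (-0.61). Of 15 collagen processing genes, 7 fell, 0 rose, 15 were negative and the median was -0.93. The cross-linking enzyme gene Lox had 94.8, 57.3 and 60.5 CPM in Twist cKO UUO kidneys, against 372, 193 and 110.4 CPM in WT UUO kidneys (log2 fold change -1.67 ± 0.38, adjusted p = 0.0287). Its relatives Loxl2 (-1.12) and Loxl3 (-0.94), the collagen chaperone gene Serpinh1 (-1.27) and the lysyl hydroxylase gene Plod1 (-0.52) also fell. Of the 15 calls given with values, 4, 0 and 3 stayed called without Twist cKO UUO replicates 1, 2 and 3, and 0, 5 and 15 without WT UUO replicates 1, 2 and 3.

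Of the other matrix genes called, all but Timp3 fell. Of 20 matricellular and elastic fibre genes, 6 fell, 0 rose and the median was -1.02. Fbln2, a fibulin of elastic fibres, had 15.5, 24.8 and 15.9 CPM in Twist cKO UUO kidneys, against 135, 102 and 55.5 CPM in WT UUO kidneys (log2 fold change -2.38 ± 0.53, adjusted p = 0.0272). Sparc, a collagen-binding glycoprotein, had 367, 381 and 386 CPM in Twist cKO UUO, against 1131, 938 and 584 CPM in WT UUO (log2 fold change -1.23 ± 0.27, adjusted p = 0.025). The fibrillin genes Fbn1 (-1.27) and Fbn2 (-2.12) and the thrombospondin gene Thbs2 (-1.78) were lower without overlap. Of 11 matrix proteoglycan and hyaluronan genes, 2 fell, 0 rose and the median was -0.58. Vcan, the provisional-matrix proteoglycan versican, had 23.4, 14.1 and 16.4 CPM in Twist cKO UUO kidneys, against 183, 116 and 77.9 CPM in WT UUO kidneys (log2 fold change -2.81 ± 0.69, adjusted p = 0.0353). The hyaluronan synthase gene Has2 had 0.365, 1.06 and 0.409 CPM in Twist cKO UUO, against 6.02, 3.98 and 3.36 CPM in WT UUO (log2 fold change -2.86 ± 0.64, adjusted p = 0.0275). Of 20 metalloproteinases and inhibitors, 5 fell and 1 rose, with a median of -1.01. Timp1, the inhibitor induced in fibrosis, had 12, 14 and 10.8 CPM in Twist cKO UUO kidneys, against 55.6, 61.8 and 48 CPM in WT UUO kidneys (log2 fold change -2.17 ± 0.42, adjusted p = 0.0185). Contralateral kidneys had 0.307, 0.26 and 0.492 CPM. Mmp9 (-1.89), the membrane-bound Mmp14 (-1.09), Mmp19 (-1.38) and the urokinase receptor gene Plaur fell. The matrix-bound inhibitor gene Timp3 rose (log2 fold change 0.76 ± 0.18, adjusted p = 0.0286). With Twist cKO UUO replicate 1, 2 or 3 left out, 1, 0 and 0 of the 12 calls given with values held, and with WT UUO replicate 1, 2 or 3 left out, 0, 2 and 11.

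**Figure D3:**
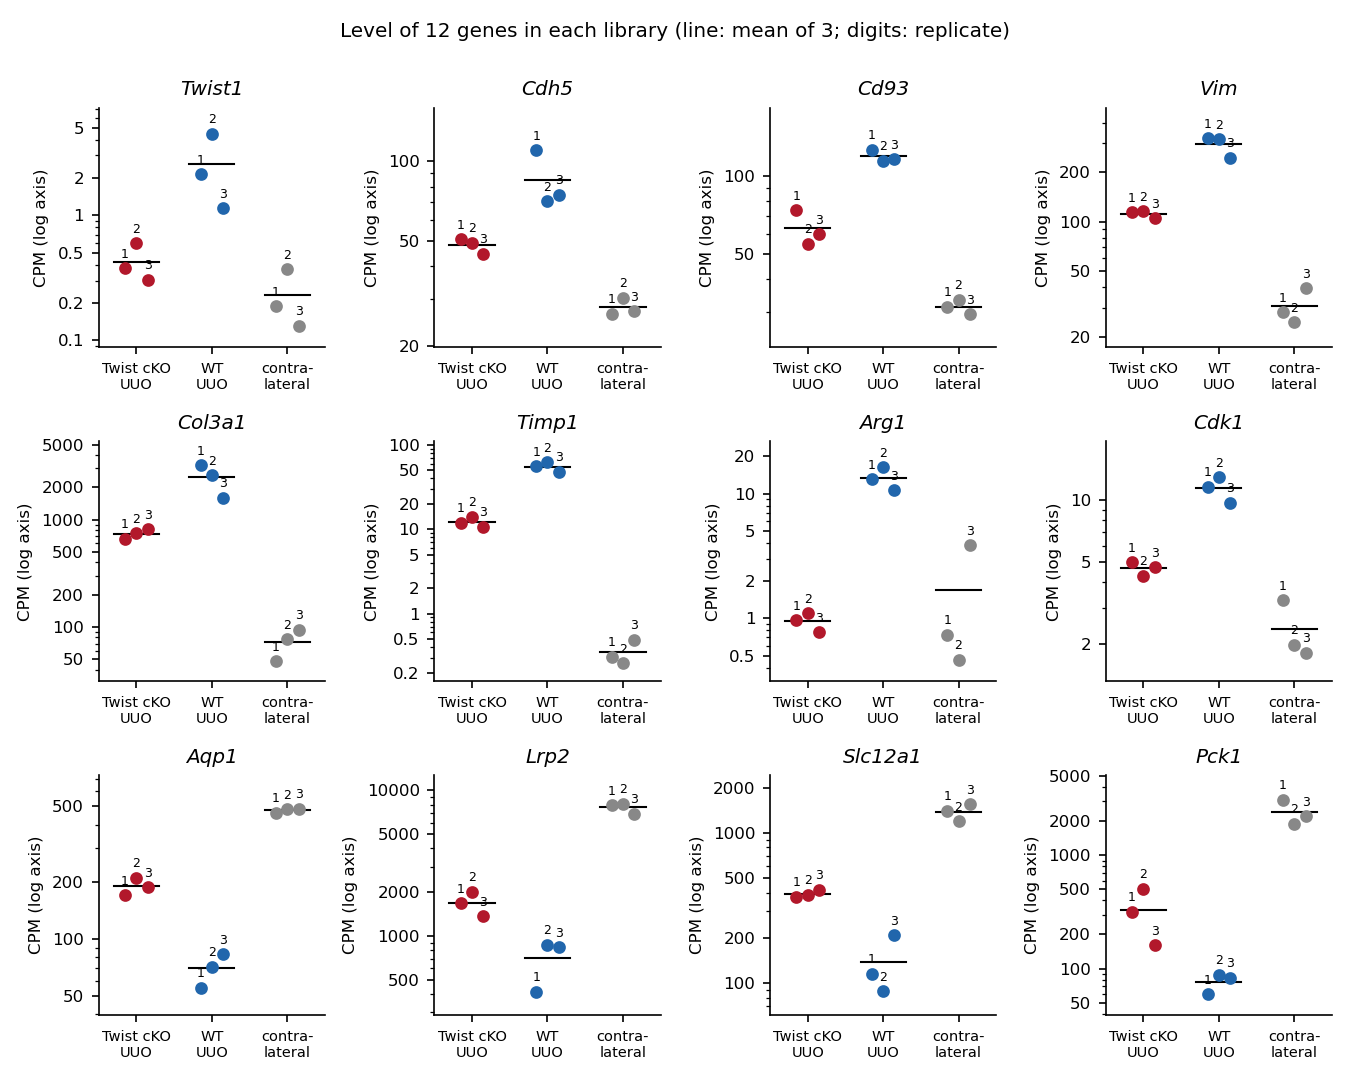
CPM of 12 genes on log axes in each library of Twist cKO UUO, WT UUO and contralateral kidneys, with the replicate as a digit and a line at the mean of 3. The Twist cKO UUO and WT UUO libraries do not overlap in any of the 12, and in 11 of them the Twist cKO UUO mean lies between the WT UUO and the contralateral mean; Arg1 is the exception.

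Some growth factor and morphogen genes were called, where 5.28% of all genes tested were. Of 15 ligands of the PDGF, FGF and EGF families, 2 fell, 0 rose and the median was -0.13; both encode ligands of the EGF receptor. Ereg, epiregulin, had 0.678, 0.438 and 1.53 CPM in Twist cKO UUO kidneys, against 15.4, 7.06 and 8.41 CPM in WT UUO kidneys (log2 fold change -3.55 ± 0.85, adjusted p = 0.0322). Areg, amphiregulin, had 0.235, 0.487 and 1.12 CPM in Twist cKO UUO, against 8.47, 2.72 and 3.61 CPM in WT UUO (log2 fold change -3.00 ± 0.78, adjusted p = 0.0406). In both genes Twist cKO UUO replicate 3 was the highest of its group and WT UUO replicate 1 the highest of the other. Ptgs2, the inducible prostaglandin synthase COX-2, had 2.31, 2.35 and 1.31 CPM in Twist cKO UUO kidneys, against 18.6, 15.2 and 6.0 CPM in WT UUO kidneys (log2 fold change -2.73 ± 0.67, adjusted p = 0.0352). Of 18 TGF-beta genes, 1 rose, 0 fell and the median was -0.05. The member that rose was Itgb8, a chain of the integrin that releases active TGF-beta (log2 fold change 0.64 ± 0.14, adjusted p = 0.0243). The ligand gene Tgfb3 missed the threshold (log2 fold change -1.51 ± 0.43, adjusted p = 0.0542). Of 14 BMP genes, 2 rose and 1 fell. Bmp7, a tubular ligand that opposes TGF-beta, had 15.2, 17.4 and 16.2 CPM in Twist cKO UUO kidneys, against 11.4, 6.53 and 9.47 CPM in WT UUO kidneys (log2 fold change 0.84 ± 0.22, adjusted p = 0.0453). Bmp4 rose (0.60) and the effector gene Smad1 fell (-0.40). Of 15 Wnt genes 0 were called, with a median of -0.20; 2 were lower at an unadjusted p under 0.05, and DESeq2 called 1 and limma voom 0. The 7 calls given with values were down to 1, 0 and 1 without Twist cKO UUO replicates 1, 2 and 3, and to 0, 1 and 5 without WT UUO replicates 1, 2 and 3.

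Among immune genes, 6 macrophage markers fell and lymphocyte markers were not called. Of 21 macrophage genes, 6 fell, 0 rose, 21 had a negative log2 fold change and the median was -0.84. Arg1, the arginase of alternatively activated macrophages, had 0.965, 1.1 and 0.774 CPM in Twist cKO UUO kidneys, against 13, 16.3 and 10.7 CPM in WT UUO kidneys (log2 fold change -3.82 ± 0.73, adjusted p = 0.0185). The complement genes of tissue macrophages C1qa (log2 fold change -0.84 ± 0.21, adjusted p = 0.0368), C1qb (-1.02) and C1qc (-0.92) fell together. The mannose receptor gene Mrc1 had 79.7, 96.5 and 76.9 CPM in Twist cKO UUO kidneys, against 170.1, 152 and 106 CPM in WT UUO kidneys (log2 fold change -0.76 ± 0.20, adjusted p = 0.0444). Lgals3, the lectin galectin-3, fell (-0.59). Pf4, a chemokine of platelets that macrophages also make, had 1.83, 2.12 and 1.37 CPM in Twist cKO UUO, against 5.75, 11.5 and 6.14 CPM in WT UUO (log2 fold change -2.13 ± 0.43, adjusted p = 0.0202). Calls lower made up 2.31% of all genes tested, and calls in either direction 5.28%. Of 22 chemokine genes, 1 fell: Cxcr4, the receptor for CXCL12 (log2 fold change -1.12 ± 0.28, adjusted p = 0.0373). Of 21 interleukin genes, 2 fell. Il33, an alarmin stored in stromal and endothelial nuclei, had 27.1, 25.8 and 23.7 CPM in Twist cKO UUO kidneys, against 113, 58.9 and 49.1 CPM in WT UUO kidneys (log2 fold change -1.53 ± 0.33, adjusted p = 0.0246). The decoy receptor gene Il1r2 had 0.17, 0.195 and 0.292 CPM in Twist cKO UUO, against 1.66, 1.22 and 1.6 CPM in WT UUO (log2 fold change -2.77 ± 0.51, adjusted p = 0.0165). Of 18 interferon-stimulated genes, the antiviral membrane protein gene Bst2 fell (-0.86). Of the 16 T cell, 10 B cell and plasma cell, 8 neutrophil, 10 MHC class II and 15 complement genes tested, a list without the C1q genes, 0 were called, with medians of 0.08, -1.40, -1.37, -0.07 and -0.59. At an unadjusted p under 0.05, 0, 1, 4, 0 and 6 of these were lower and 0 higher; DESeq2 called 0, 0, 2, 0 and 4, and limma voom 0, 0, 1, 0 and 4. Cd3e of the T cell receptor complex had 2.06, 1.25 and 0.847 CPM in Twist cKO UUO kidneys, against 0.839, 0.886 and 1.08 CPM in WT UUO kidneys (log2 fold change 0.57 ± 0.55, adjusted p = 0.587). The granulocyte receptor gene Csf3r had 4.89, 5.15 and 5.67 CPM in Twist cKO UUO, against 11.6, 10.6 and 9.4 CPM in WT UUO (log2 fold change -1.01 ± 0.29, adjusted p = 0.0551). The B cell list separated the groups without a call: its 10 members summed to 59.3, 41.8 and 53.5 CPM in Twist cKO UUO kidneys, against 240.4, 122 and 87.6 CPM in WT UUO kidneys. Leaving out Twist cKO UUO replicate 1, 2 or 3 left 0, 0 and 1 of the 11 calls given with values, and leaving out WT UUO replicate 1, 2 or 3 left 0, 3 and 10.

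The mitotic list had the largest share of calls of the 58 lists. Of 22 mitotic genes, 18 fell, 0 rose, and in 22 the libraries did not overlap; the median was -1.19. Cdk1, the kinase that starts mitosis, had 5.01, 4.31 and 4.75 CPM in Twist cKO UUO kidneys, against 11.7, 13 and 9.75 CPM in WT UUO kidneys (log2 fold change -1.29 ± 0.26, adjusted p = 0.0216). Its cyclins Ccnb1 (log2 fold change -1.40 ± 0.28, adjusted p = 0.0193) and Ccna2 (log2 fold change -1.12 ± 0.22, adjusted p = 0.0193) fell. The spindle checkpoint kinase gene Ttk had 1.51, 1.05 and 1.3 CPM in Twist cKO UUO kidneys, against 3.87, 3.94 and 4.03 CPM in WT UUO kidneys (log2 fold change -1.62 ± 0.31, adjusted p = 0.0178). The kinase gene Plk1 (-1.22) and the cytokinesis motor gene Kif20a (-1.15) were lower without overlap. Contralateral kidneys averaged 2.36 ± 0.798 CPM of Cdk1, below both obstructed groups. Of 22 DNA replication genes, 4 fell, 0 rose and the median was -0.42. They were the polymerase clamp gene Pcna (-0.63), the ribonucleotide reductase genes Rrm1 (-0.77) and Rrm2 (-0.71) and the helicase gene Mcm3 (-0.73). Rrm2 lies within 20 Mb of Twist1 on chromosome 12. Myc itself had 19.6, 17.9 and 29.2 CPM in Twist cKO UUO kidneys, against 22.1, 23.8 and 21.8 CPM in WT UUO kidneys, with overlap and no call (log2 fold change -0.02 ± 0.23, adjusted p = 0.973). Of 20 genes of the Myc network and its growth targets, 2 fell, both of the nucleolus: Npm1 (-0.30) and Fbl (-0.67), with a median of -0.23 for the list. Of the 12 calls given with values, 3, 0 and 5 stayed called without Twist cKO UUO replicates 1, 2 and 3, and 0, 2 and 10 without WT UUO replicates 1, 2 and 3.

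Mitotic genes are known to share short promoter elements: the cell cycle homology region, CHR, which the DREAM and MuvB complexes bind, and the CCAAT box of NF-Y. RefSeq gave a window of 300 bases, 250 before to 50 after the start, for 17 of the 22 mitotic genes and 12636 of the genes tested, taking the first start listed for a gene. TTTGAA or TTCGAA on either strand was in 14 of the 17 windows (82.4%), and in 14.4% of all windows. CCAAT on either strand was in 16 of the 17 (94.1%), and in 37.5% of all. Because this list had the largest share of calls, 4 mitotic genes with both elements within 150 bases before to 50 after the start are shown. The choice did not rest on p alone. The cytokinesis motor gene given above had a smaller p than Ttk, Cdk1 and Plk1 and is not shown here. Sequences run 5′ to 3′ along the gene in build GRCm38.p6, with CHR and CCAAT matches in capitals. Ttk (chr9:83834539-83834738, plus strand), Cdk1 (chr10:69352863-69353062, minus strand), Plk1 (chr7:122159285-122159484, plus strand) and Bub1b (chr2:118598061-118598260, plus strand), whose product is a checkpoint kinase, read as follows.
Ttk: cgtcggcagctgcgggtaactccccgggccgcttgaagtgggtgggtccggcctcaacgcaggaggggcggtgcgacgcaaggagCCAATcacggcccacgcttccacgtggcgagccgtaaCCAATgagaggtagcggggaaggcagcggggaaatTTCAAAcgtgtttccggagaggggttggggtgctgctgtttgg
Cdk1: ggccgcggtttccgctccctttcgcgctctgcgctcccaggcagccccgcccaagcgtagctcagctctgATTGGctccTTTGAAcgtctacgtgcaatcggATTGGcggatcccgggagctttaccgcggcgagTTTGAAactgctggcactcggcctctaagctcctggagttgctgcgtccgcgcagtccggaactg
Plk1: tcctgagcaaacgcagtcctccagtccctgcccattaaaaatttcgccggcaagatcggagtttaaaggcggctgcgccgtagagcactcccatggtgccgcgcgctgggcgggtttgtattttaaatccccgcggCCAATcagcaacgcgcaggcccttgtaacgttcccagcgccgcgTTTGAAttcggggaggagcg
Bub1b: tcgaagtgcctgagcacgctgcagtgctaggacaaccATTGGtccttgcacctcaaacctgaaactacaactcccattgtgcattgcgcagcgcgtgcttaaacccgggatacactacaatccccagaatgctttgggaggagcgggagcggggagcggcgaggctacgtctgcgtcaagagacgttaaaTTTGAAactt
In Cdk1 a pair of CCAAT boxes and a pair of CHR elements lie before the start listed, whereas the CHR matches of Ttk, Plk1 and Bub1b lie after it. This order depends on the start taken. GENCODE M21 has the first base of Cdk1 at 69352938, upstream of the start listed, and the CHR match nearest the start then lies after it. The first bases transcribed from the start listed for Plk1 were in 0 GENCODE transcripts. The E-box CANNTG, the sequence that Twist1 dimers bind, was in 68.1% of 439 windows of genes called higher, 61.0% of 328 windows of genes called lower and 65.5% of all windows. The variant CAGATG was in 12.3%, 14% and 12.7% of these, and CATATG in 2.05%, 2.74% and 1.94%. A match is a description of letters in the window and not evidence of binding.

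**Figure D4:**
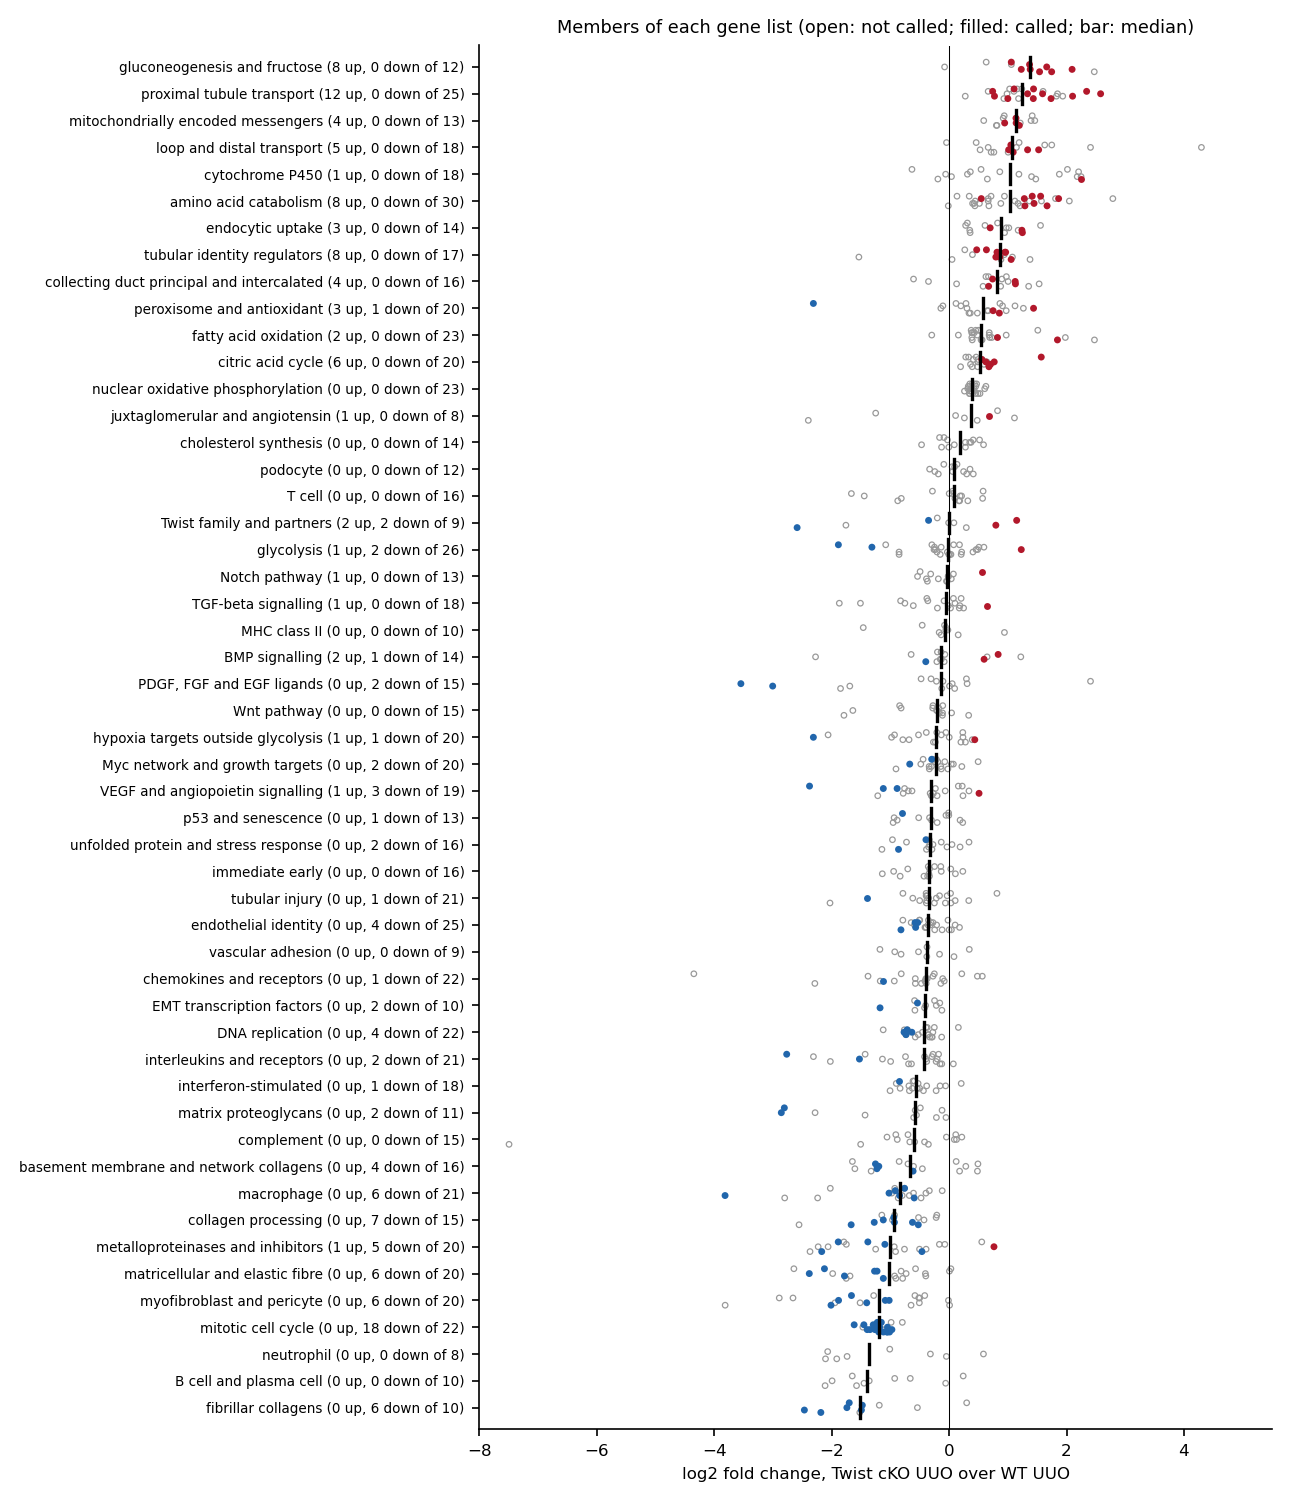
Log2 fold change, Twist cKO UUO over WT UUO, of each member tested of 51 gene lists, ordered by median (black bar); filled red and blue points were called higher and lower, open points were not called. Medians ran from 1.38 for gluconeogenesis and fructose use to -1.51 for fibrillar collagens, with 18 of 22 mitotic and 12 of 25 proximal transport genes called.

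Transport genes of several nephron segments rose in Twist cKO UUO kidneys. Of 25 proximal tubule transport genes, 12 rose, 0 fell, 25 had a positive log2 fold change and the median was 1.24. Aqp1, the water channel of the proximal tubule, had 170.2, 209.9 and 187 CPM in Twist cKO UUO kidneys, against 55.4, 71.5 and 82.9 CPM in WT UUO kidneys (log2 fold change 1.43 ± 0.25, adjusted p = 0.0137), and contralateral kidneys averaged 477 ± 12.2 CPM. Slc9a3, the apical sodium-proton exchanger NHE3, had 27.5, 29.9 and 27.7 CPM in Twist cKO UUO, against 6.08, 9.12 and 13 CPM in WT UUO (log2 fold change 1.59 ± 0.30, adjusted p = 0.0178). The organic anion transporter gene Slc22a8 had 63.3, 71.3 and 13.3 CPM in Twist cKO UUO kidneys, against 2.19, 10.1 and 12.4 CPM in WT UUO kidneys (log2 fold change 2.58 ± 0.67, adjusted p = 0.0412). Its spread was wide: Twist cKO UUO replicate 3 and WT UUO replicate 1 were the low libraries of their groups, as they were for the mean level of the whole list. The dicarboxylate transporter gene Slc13a3 (log2 fold change 2.34 ± 0.48, adjusted p = 0.022), the neutral amino acid transporter gene Slc6a19 (2.10), the cystine transporter subunit gene Slc3a1 (1.0) and the glucose transporter gene Slc5a1 (0.74) rose without overlap. Of 14 endocytic uptake genes, 3 rose, 0 fell and the median was 0.89. Lrp2, megalin, had 1679.5, 2013 and 1368 CPM in Twist cKO UUO kidneys, against 416, 874 and 840.3 CPM in WT UUO kidneys (log2 fold change 1.25 ± 0.27, adjusted p = 0.025). Its partner gene Cubn rose (1.24), and so did the brush border peptidase gene Anpep (0.70). Without WT UUO replicate 1 or Twist cKO UUO replicate 2, 0 of these calls held.

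Beyond the proximal tubule, 5 of 18 loop and distal transport genes rose, 0 fell and the median was 1.07. Slc12a1, the furosemide-sensitive cotransporter of the thick ascending limb, had 376, 388 and 418 CPM in Twist cKO UUO kidneys, against 115, 88.2 and 208 CPM in WT UUO kidneys, of which replicate 3 was the highest (log2 fold change 1.53 ± 0.33, adjusted p = 0.025). The potassium channel gene Kcnj1 (1.05), the ion channel subunit gene Bsnd (1.34) and the tight junction gene Cldn19 (1.01) rose with it. Of 16 collecting duct genes, 4 rose, 0 fell and the median was 0.81. They were Hsd11b2, which shields the mineralocorticoid receptor from cortisol and corticosterone (log2 fold change 1.13 ± 0.24, adjusted p = 0.0237), the sodium channel subunit gene Scnn1g (1.13), the carbonic anhydrase gene Car2 (0.67) and the proton pump gene Atp6v1b1 (0.74). Of 12 podocyte genes 0 were called and the median was 0.08; 1 was higher at an unadjusted p under 0.05, and DESeq2 and limma voom called 0. The mineralocorticoid receptor gene Nr3c2 was the 1 member that rose of 8 juxtaglomerular and angiotensin genes. With Twist cKO UUO replicate 1, 2 or 3 left out, 5, 0 and 12 of the 18 calls given with values held, and with WT UUO replicate 1, 2 or 3 left out, 0, 7 and 16.

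Regulators of the tubular state rose in part. Of 17 such genes, 8 rose, 0 fell and the median was 0.86. Ppargc1b, a coactivator of mitochondrial genes, had 10.1, 10.4 and 12 CPM in Twist cKO UUO kidneys, against 5.23, 5.56 and 5.88 CPM in WT UUO kidneys (log2 fold change 0.96 ± 0.15, adjusted p = 0.0124). Its nuclear receptor partners Esrrg (log2 fold change 0.86 ± 0.15, adjusted p = 0.0147) and Esrra (log2 fold change 0.64 ± 0.13, adjusted p = 0.022) rose too. None of these 3 overlapped between the groups. Hnf4g, a nuclear receptor gene, rose (0.82). Calls lower made up 2.31% of all genes tested. Genes of tubular injury held fewer calls than these regulators: 1 of 21 fell, which was Vim, 0 rose and the median was -0.35. At an unadjusted p under 0.05, 5 were lower and 1 higher, and DESeq2 called 3 and limma voom 1. The mean level of the list was 2.89, 2.92 and 3.02 log2 above the contralateral mean in Twist cKO UUO kidneys, against 3.32, 3.16 and 3.17 in WT UUO kidneys. Havcr1, the injury marker KIM-1, had 265, 409 and 280.2 CPM in Twist cKO UUO kidneys, against 368, 507 and 374 CPM in WT UUO kidneys (log2 fold change -0.39 ± 0.99, adjusted p = 0.866). The error of Havcr1 rests on a spread shared by all 18 libraries, and healthy kidneys had 2.08, 57.4 and 0.977 CPM. Lcn2, the injury marker NGAL, had 161, 136 and 158 CPM in Twist cKO UUO, against 215, 155 and 273 CPM in WT UUO (log2 fold change -0.50 ± 0.23, adjusted p = 0.214), and both overlapped between the groups. The nephron progenitor factor gene Pax2, which injured tubules express again, was not called (log2 fold change 0.82 ± 0.23, adjusted p = 0.0562). Of 13 p53 and senescence genes the kinase gene Plk2 fell, and of 16 genes of the unfolded protein and stress response the transcription factor genes Atf4 and Atf5 fell. Of 16 immediate early genes 0 were called; 3 were lower at an unadjusted p under 0.05, and DESeq2 and limma voom called 1 each. Without Twist cKO UUO replicates 1, 2 and 3, 2, 1 and 3 of the 4 calls given with values held, against 0, 2 and 4 without WT UUO replicates 1, 2 and 3.

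Among metabolic genes of the proximal tubule, glucose-forming and amino acid pathways held the most calls. Of 12 genes of gluconeogenesis and fructose use, 8 rose, 0 fell and the median was 1.38, the highest of all lists. Pck1, which commits carbon to glucose synthesis, had 317, 506 and 160.3 CPM in Twist cKO UUO kidneys, against 59.2, 88.2 and 82.8 CPM in WT UUO kidneys and a contralateral mean of 2416 ± 622 CPM (log2 fold change 2.10 ± 0.52, adjusted p = 0.0368). The fructokinase gene Khk had 51.2, 76.6 and 33.5 CPM in Twist cKO UUO kidneys, against 11.1, 22.7 and 21.6 CPM in WT UUO kidneys (log2 fold change 1.54 ± 0.33, adjusted p = 0.0247). The fructose transporter gene Slc2a5 (1.75) and the glycerol kinase gene Gyk (1.38) rose. Twist cKO UUO replicate 3 was the lowest of its group in all 4, and still above every WT UUO library. Of 30 amino acid catabolism genes, 8 rose and 0 fell, with a median of 1.03. Among them were Kmo of tryptophan breakdown (log2 fold change 1.42 ± 0.26, adjusted p = 0.0169), Aldh4a1 of proline breakdown (1.28), Hgd of tyrosine breakdown (1.56) and the methyltransferase gene Bhmt2 (1.87). Of 20 peroxisome and antioxidant genes, 3 rose and 1 fell; catalase, Cat (0.86), the acyl-CoA synthetase gene Slc27a2 and Gclm of glutathione synthesis rose and Hmox1, given above, fell. Calls higher made up 2.97% of all genes tested. Of 18 cytochrome P450 genes, 1 rose, Cyp2a5 (log2 fold change 2.24 ± 0.54, adjusted p = 0.0327), with a median of 1.03. When WT UUO replicate 1 or Twist cKO UUO replicate 2 was left out, 0 of these calls held.

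Mitochondrial genes were read in 4 lists. Of 20 citric acid cycle genes, 6 rose, 0 fell, 20 had a positive log2 fold change and the median was 0.53. Ogdh, a subunit of the oxoglutarate dehydrogenase complex, had 203, 259 and 210.0 CPM in Twist cKO UUO kidneys, against 113, 156 and 142 CPM in WT UUO kidneys (log2 fold change 0.71 ± 0.16, adjusted p = 0.0278). The cycle enzyme genes Idh3a (0.56), Mdh1 (0.77) and Sdha (0.63) rose. Of 23 fatty acid oxidation genes, 2 rose and 0 fell, with a median of 0.54. They were Acaa1b of the peroxisomal pathway (log2 fold change 1.85 ± 0.41, adjusted p = 0.0265) and Hadh of the mitochondrial pathway (0.82). Of 23 nuclear genes of oxidative phosphorylation, 0 were called although 23 had a positive log2 fold change, with a median of 0.39. At an unadjusted p under 0.05, 15 of them were higher, and DESeq2 called 3 and limma voom 0. Cyc1, cytochrome c1, had 52.6, 62.1 and 39.3 CPM in Twist cKO UUO kidneys, against 29, 35.3 and 35.5 CPM in WT UUO kidneys (log2 fold change 0.63 ± 0.18, adjusted p = 0.0578). Of the 13 messengers encoded by mitochondrial DNA, 4 rose, 0 fell and the median was 1.14. They encode subunits of complex I. mt-Nd5 had 749, 1355 and 1328 CPM in Twist cKO UUO kidneys, against 448, 558 and 491 CPM in WT UUO kidneys (log2 fold change 1.20 ± 0.24, adjusted p = 0.0193). The others were mt-Nd2 (1.14), mt-Nd4 (1.14) and mt-Nd6 (0.95). The share of mitochondrial ribosomal RNA, given above, was higher in all 3 Twist cKO UUO libraries as well. Of 14 cholesterol synthesis genes 0 were called and the median was 0.18; 3 were higher and 1 lower at an unadjusted p under 0.05, and DESeq2 and limma voom called 0. Leaving out Twist cKO UUO replicate 1, 2 or 3 left 8, 0 and 15 of the 20 calls given with values, and leaving out WT UUO replicate 1, 2 or 3 left 0, 10 and 12.

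**Figure D5:**
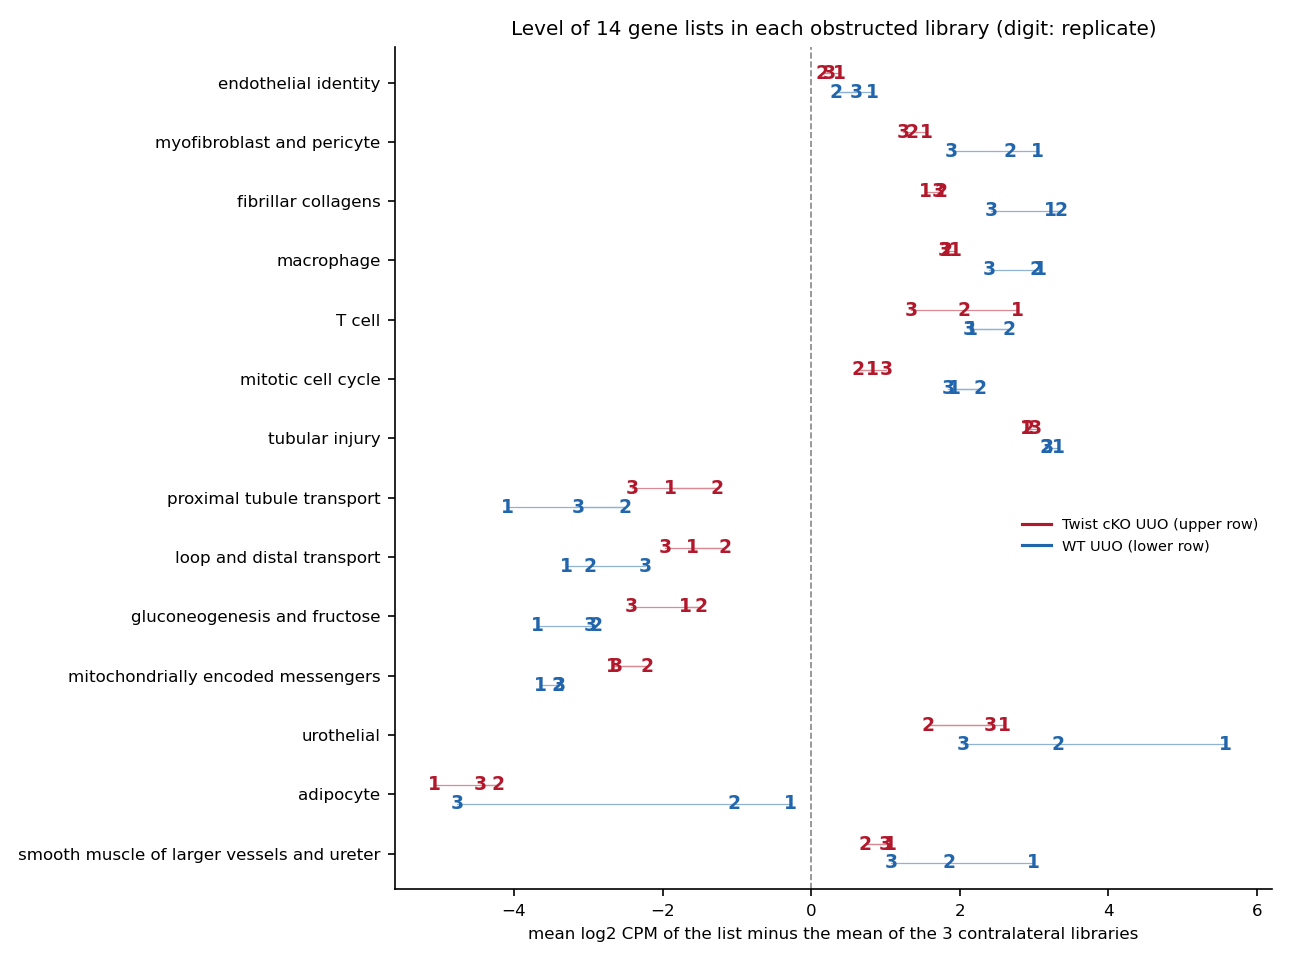
Mean log2 CPM over the members of 14 gene lists in each library, minus the mean of the 3 contralateral libraries (dashed line at 0), for Twist cKO UUO (red, upper) and WT UUO (blue, lower), with the replicate as a digit. For fibrillar collagens the Twist cKO UUO libraries were 1.54 to 1.74 above the contralateral mean and the WT UUO libraries 2.42 to 3.36; for proximal tubule transport the differences were -2.41 to -1.27 in Twist cKO UUO and -4.09 to -2.51 in WT UUO.

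The same levels can be read library by library. For the mitotic list the mean log2 CPM was 0.83, 0.63 and 1.01 above the contralateral mean in Twist cKO UUO replicates 1 to 3, against 1.93, 2.27 and 1.84 in WT UUO replicates 1 to 3. For macrophages it was 1.94, 1.81 and 1.79 above in Twist cKO UUO kidneys, against 3.08, 3.02 and 2.39 in WT UUO kidneys. For T cells it was 2.78, 2.05 and 1.34 above in Twist cKO UUO kidneys, against 2.15, 2.66 and 2.12 in WT UUO kidneys, and the groups overlapped. Within WT UUO the floxed replicate 3 lay nearest the Twist cKO UUO kidneys for collagens, myofibroblasts and macrophages, and replicate 1 lay farthest for transport. With 1 such library, the absence of Cre and the library itself cannot be told apart.

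The 15 largest rises and 15 largest falls were taken from called genes whose libraries did not overlap and whose average log2 CPM reached 1, leaving out pseudogenes, mitochondrially encoded genes and predicted or clone-named genes. Ces1d, a carboxylesterase, had 50.5, 75.9 and 11.9 CPM in Twist cKO UUO kidneys, against 3.18, 10.2 and 8.2 CPM in WT UUO kidneys (log2 fold change 2.68 ± 0.57, adjusted p = 0.0239). The pyrimidine-degrading gene Dpys (log2 fold change 2.63 ± 0.67, adjusted p = 0.0387), the nucleoside transporter gene Slc28a1 (log2 fold change 2.21 ± 0.36, adjusted p = 0.0125), the carbonic anhydrase gene Car14 (2.27), the glycine methyltransferase gene Gnmt (2.16) and the anion transporter gene Slc22a13 (2.09) were others. Vmn1r19, Clec2h, Mettl7a2 and Vstm2a were also among them, with log2 fold changes of 2.44, 2.35, 2.33 and 2.32. The falls, beyond those given, held Fabp5, a fatty acid binding protein of macrophages and epithelia, with 4.42, 2.32 and 2.76 CPM in Twist cKO UUO kidneys, against 14.9, 20.6 and 4.49 CPM in WT UUO kidneys (log2 fold change -2.07 ± 0.44, adjusted p = 0.0247). The decoy receptor gene Tnfrsf23 (log2 fold change -2.06 ± 0.36, adjusted p = 0.0141), the PDGF receptor-like gene Pdgfrl (-2.09) and the histone gene Hist1h4n (-2.29), whose near-identical copies make its count uncertain, completed them. Of the 14 calls given with values, 6, 0 and 7 stayed called without Twist cKO UUO replicates 1, 2 and 3, and 0, 6 and 13 without WT UUO replicates 1, 2 and 3.

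Calls were denser beside Twist1, taken as the targeted gene. Within 20 Mb of Twist1 on chromosome 12, 17 of 138 genes tested were called (12.3%), 4 higher and 13 lower, against 25 of 599 (4.17%) on the rest of the chromosome and 1017 of 18939 (5.37%) on the others. The overlapping pseudogenes 3110053B16Rik (chr12:20874125-20921262) and Zfp125 (chr12:20877084-20921262) were the genes of the smallest and the third smallest p in the whole comparison. 3110053B16Rik had 0.196, 0.28 and 0.205 CPM in Twist cKO UUO kidneys, against 3.61, 3.62 and 1.66 CPM in WT UUO kidneys (log2 fold change -3.69 ± 0.42, adjusted p = 0.0052). Zfp125 had 0.326, 0.329 and 0.19 CPM in Twist cKO UUO, against 3.57, 3.73 and 2.36 CPM in WT UUO (log2 fold change -3.50 ± 0.44, adjusted p = 0.00532). Low levels were not limited to Cre-positive kidneys. 3110053B16Rik had 0.061, 0.164 and 0.0465 CPM in the healthy kidneys, which were floxed with no Cre and not obstructed, and 2.43, 1.99 and 1.0 CPM in contralateral kidneys, of which the floxed replicate 3 was the lowest. WT UUO replicate 3, floxed with no Cre, was likewise the lowest of its group in both genes, and Snail cKO UUO kidneys had 3.76, 3.28 and 3.42 CPM. The pseudogene Gm10478, inside the same interval, fell too (log2 fold change -3.61 ± 0.55, adjusted p = 0.0124). Acp1, a phosphatase gene, had 8.54, 9.2 and 6.25 CPM in Twist cKO UUO kidneys, against 17.7, 19.95 and 17.9 CPM in WT UUO kidneys (log2 fold change -1.21 ± 0.22, adjusted p = 0.0158). It had 13.5, 14.2 and 7.26 CPM in the floxed healthy kidneys and 20.1, 23.1 and 19 CPM in contralateral kidneys. Snail cKO UUO kidneys, of the line with floxed Snail alleles, had 9.78, 10.9 and 7.07 CPM of Acp1. It was not called between the Twist cKO UUO and Snail cKO UUO kidneys (log2 fold change -0.21 ± 0.22, adjusted p = 0.962). Adi1, of the methionine salvage pathway, had 27.2, 29.5 and 29 CPM in Twist cKO UUO kidneys, against 10.7, 12 and 17.4 CPM in WT UUO kidneys (log2 fold change 1.09 ± 0.15, adjusted p = 0.00977). It had 54.9, 49 and 46.8 CPM in healthy and 31.9, 40.4 and 40.9 CPM in contralateral kidneys. Cys1, a cilium gene, rose (0.96), and the peroxidasin gene Pxdn (-0.64), the ribosomal protein gene Rps7 (-0.46) and the ubiquitin ligase gene G2e3 (-0.53) fell. Id2 and Rrm2, given above with their lists, lie in this window as well. Loss of Twist and the chromosome segment that comes with the floxed allele cannot be told apart for these genes. Why Acp1 was also low in Snail cKO UUO kidneys was not tested. With Twist cKO UUO replicate 1, 2 or 3 left out, 6, 3 and 6 of the 9 calls given with values held, and with WT UUO replicate 1, 2 or 3 left out, 3, 7 and 9.

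Calls that survived the removal of any library were 9 in number, a set chosen after the values were seen. Besides 3110053B16Rik, Zfp125, Adi1 and Cd93 they were 5 genes that rose. Ngef, a guanine nucleotide exchange factor gene, had 28.3, 28.6 and 30.2 CPM in Twist cKO UUO kidneys, against 13.1, 13.1 and 17.3 CPM in WT UUO kidneys (log2 fold change 1.0 ± 0.13, adjusted p = 0.00532). Sema4g, a semaphorin gene, had 16.9, 14.9 and 17.2 CPM in Twist cKO UUO, against 5.64, 5.04 and 7.3 CPM in WT UUO (log2 fold change 1.45 ± 0.20, adjusted p = 0.00977). Fggy, a carbohydrate kinase gene, had 51.6, 53.6 and 45.8 CPM in Twist cKO UUO kidneys, against 18.5, 27.1 and 29.7 CPM in WT UUO kidneys (log2 fold change 1.0 ± 0.15, adjusted p = 0.0124). In these 3 genes the contralateral mean, 54.3 ± 6.19, 37.6 ± 5.66 and 109.8 ± 9.92 CPM, lay above both obstructed groups. The actin cytoskeleton gene Dmtn (log2 fold change 0.86 ± 0.12, adjusted p = 0.00977) and the antisense transcript Gm11342 (log2 fold change 2.11 ± 0.29, adjusted p = 0.00977), whose reads cannot be set apart from its sense partner without the strand setting, completed the set.

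Direct tests set the Twist knockout against the other obstructed knockouts. Against Snail cKO UUO kidneys, the other endothelial knockout, 36 genes were called (0.171%), 18 higher and 18 lower (0.0855% each). Those near Twist1 were among them, with 3110053B16Rik (log2 fold change -3.93 ± 0.42, adjusted p = 0.000433) and Zfp125 (log2 fold change -3.53 ± 0.44, adjusted p = 0.00187). Fggy, the kinase gene above, had 51.6, 53.6 and 45.8 CPM in Twist cKO UUO kidneys and 21, 26.2 and 23.8 CPM in Snail cKO UUO kidneys (log2 fold change 1.09 ± 0.15, adjusted p = 0.00459). Ece1, the endothelin-converting enzyme of endothelium, had 129, 125 and 116 CPM in Twist cKO UUO kidneys and 74, 74.8 and 84.6 CPM in Snail cKO UUO kidneys, with no overlap (log2 fold change 0.66 ± 0.10, adjusted p = 0.011). WT UUO kidneys had 125, 95 and 112 CPM. Among the small nuclear RNA genes, Gm22513 had 32.9, 75.9 and 55.9 CPM in Twist cKO UUO kidneys and 0.228, 0.241 and 0.143 CPM in Snail cKO UUO kidneys (log2 fold change 8.07 ± 0.40, adjusted p = 8.38e-08). Gm25360 was lower in Twist cKO UUO kidneys (log2 fold change -2.46 ± 0.20, adjusted p = 1.98e-05). Copies of such genes are near-identical and their counts uncertain. Of the 22 mitotic, 25 proximal transport and 10 fibrillar collagen genes, 0 were called against Snail cKO UUO kidneys, with medians of -0.33, 0.39 and -0.53. At an unadjusted p under 0.05 these were 0, 5 and 4 genes, beside 1373 of all 21050 genes tested. The 5 transport genes were higher in Twist cKO UUO kidneys, and of the 4 collagen genes 3 were lower and 1 higher. DESeq2 called 0, 1 and 0 and limma voom 0 of each list. The lines differ in strain, and the 2 groups in their mix of sexes. The call count was 14, 21 and 20 with Twist cKO UUO replicate 1, 2 or 3 left out and 18, 25 and 17 with Snail cKO UUO replicate 1, 2 or 3 left out. It was 12 at a 2-fold minimum and 37 with sex as a covariate.

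Against Myc cKO UUO kidneys, the tubular knockout, 630 genes were called (2.99%), 537 higher (2.55%) and 93 lower (0.442%). Of the 22 mitotic, 25 proximal transport and 10 fibrillar collagen genes, 0, 0 and 1 were called, with medians of -0.47, -0.05 and 0.26. At an unadjusted p under 0.05 these were 4, 2 and 1 genes, beside 3698 of all 21050 genes tested. The 4 mitotic and 2 transport genes were lower in Twist cKO UUO kidneys and the collagen gene higher. DESeq2 and limma voom each called 0, 1 and 1. Of 13 Notch and 18 TGF-beta genes, 3 and 3 were called, all higher. Of 25 endothelial identity, 19 VEGF and angiopoietin and 9 vascular adhesion genes, 2, 1 and 0 were called. Of the adhesion genes 1 was higher at an unadjusted p under 0.05, and DESeq2 and limma voom called 0. Ephb4, a receptor of venous endothelium, had 85.3, 78 and 82.6 CPM in Twist cKO UUO kidneys and 44, 52 and 43.2 CPM in Myc cKO UUO kidneys (log2 fold change 0.82 ± 0.09, adjusted p = 0.00117). Eng, the TGF-beta coreceptor endoglin, had 83.7, 94 and 87.3 CPM in Twist cKO UUO kidneys and 58.7, 55.8 and 57.9 CPM in Myc cKO UUO kidneys (log2 fold change 0.62 ± 0.08, adjusted p = 0.00167), against 83.5, 86.2 and 77.1 CPM in WT UUO kidneys. Ece1 (log2 fold change 0.87 ± 0.10, adjusted p = 0.00142) and the junction gene Jup (log2 fold change 0.78 ± 0.10, adjusted p = 0.00167) were higher in Twist cKO UUO kidneys as well. None of these 4 was called against WT UUO, where the difference for Eng was 0.10 ± 0.08 and its sign turned to -0.055 under scaling by library totals. The Notch ligand gene Dll1 (log2 fold change 0.67 ± 0.15, adjusted p = 0.0305) and Ngef (log2 fold change 0.61 ± 0.13, adjusted p = 0.0178) were higher in Twist cKO UUO kidneys. The call count was 285, 234 and 194 with Twist cKO UUO replicate 1, 2 or 3 left out, 450, 286 and 515 with Myc cKO UUO replicate 1, 2 or 3 left out, and 204 under scaling by library totals. It was 15 with only the groups compared in the fit, 6 at a 2-fold minimum and 782 with sex as a covariate. Strain, Cre, age range and the mix of sexes differ between these groups. The Twist cKO and WT UUO comparison shares its Twist cKO UUO libraries with both direct tests.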

How the data were processed

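Total RNA from pieces of kidney was made into stranded, paired-end RNA-seq libraries, per the labels' protocols. The deposited table holds raw read counts per gene symbol, which the authors counted with HTSeq after bcl2fastq 1.8.4 on build mm10, and they name DESeq2, per the submitters' processing notes; the aligner, annotation and strand setting of the counting stand in none of the sources used here. Of 24 columns, 18 matched the labels of 18 samples in 6 groups of 3, and 6 matched none and were not used. The files give the total count per library as depth, and errors cover the spread between libraries.

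From these counts, genes passing filterByExpr were fitted with edgeR 4.0.16 in R 4.3.3 (TMM scaling, robust quasi-likelihood test, all 6 groups sharing the spread, 12 residual degrees of freedom), and p-values were Benjamini-Hochberg adjusted over 21050 genes. Comparisons were Twist cKO UUO against WT UUO, Snail cKO UUO and Myc cKO UUO. Every adjusted p is from this two-sided edgeR test, and an exact permutation of 3 against 3 libraries cannot go below 0.1. The script was tested on simulated data. Other scalings, filters, covariates, sample sets, limma 3.58.1 voom, DESeq2 1.42.0 and leaving out each library were alternatives.

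Named genes were 12 set genes, the 15 largest rises and falls, up to 5 members of each list by p, called genes within 20 Mb of Twist1 and up to 10 called genes per direct test. Genes outside this rule are given as chosen after their values were seen. Members of lists named without values were added because their list held 5 or fewer calls. The comparison, gene lists and promoter motifs were chosen with earlier results of these data known. Positions are from GENCODE M21 (GRCm38), which held 19676 of the symbols tested, and promoters from RefSeq GRCm38.p6. Some genes counted in the lists are not reported here by name.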

Additional observations from a re-analysis of the deposited data

Results flagged for a closer look

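These differences were flagged because the Twist cKO UUO kidneys differed from another obstructed knockout under edgeR's quasi-likelihood test of the difference itself, with all values as log2 fold changes over that knockout. They were taken among genes already named for other reasons, so their number is not a rate. Against Snail cKO UUO kidneys, 3110053B16Rik was at -3.93, Zfp125 at -3.53 and Gm10478 at -3.69, and against Myc cKO UUO kidneys they were at -3.87, -3.60 and -3.49. These 3 pseudogenes and Acp1 (-1.34 against Myc cKO UUO), Adi1 (0.93) and G2e3 (-0.53) lie within 20 Mb of Twist1. Against Snail cKO UUO kidneys Acp1 was at -0.21 and was not called. Fggy was at 1.09 and Ece1 at 0.66 against Snail cKO UUO kidneys. Against Myc cKO UUO kidneys Ece1 was at 0.87, Ephb4 at 0.82, Jup at 0.78, Dll1 at 0.67, Eng at 0.62 and Ngef at 0.61. The small nuclear RNA genes Gm22513 (8.07 against Snail cKO UUO and 1.29 against Myc cKO UUO) and Gm25360 (-2.46 against Snail cKO UUO) have near-identical copies, so that their counts are uncertain. Strain differs between the Twist line and both other lines, and its part in these values cannot be told apart from that of the knockouts. The mix of sexes differed as well.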

How the results depend on the processing

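Genes called in Twist cKO UUO against WT UUO kidneys numbered 1111, and 608 with library totals alone, 733 with no low-count filter, 1831 with sex as a covariate, 509 with only the 4 obstructed groups, 1 at a 2-fold minimum and 2494 with DESeq2; with a library left out they ran from 13 to 1057. The other 7 settings gave 1064 to 1472. Against Snail cKO UUO (36) the counts were 56 with only the 2 groups compared, 12 at a 2-fold minimum, 152 with DESeq2 and 14 to 25 with a library left out. Against Myc cKO UUO (630) they were 204 with library totals alone, 15 with only the 2 groups compared, 6 at a 2-fold minimum, 1624 with DESeq2 and 194 to 515 with a library left out. The log2 fold change of Twist1 stayed at -2.59 but missed the threshold at a 2-fold minimum (adjusted p = 0.584), and was -2.94 to -1.91 with a library left out, with an adjusted p of 0.0701 when WT UUO replicate 1 was left out and 0.0508, 0.0582 and 0.0525 when Twist cKO UUO replicate 1, 2 or 3 was. Uncalled genes changed sign: Hif1a ran from -0.43 to 0.10 and Myc from -0.25 to 0.11 with a library left out, and Eng was -0.055 with library totals alone. The cause of these shifts was not tested, apart from the fewer libraries and the stricter null that the settings themselves bring. No paired analysis was possible because the labels carry no replicate numbers shared between groups, and the numbers used here only name libraries. Limits are the 3 libraries a group, the absence of a time point or animal identity in the labels, WT UUO replicates of differing genotype, and whole-kidney RNA.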
